A study of Mus musculus with 10 samples.

Results

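The genes that write, copy and erase DNA methylation carry methylation themselves. Here the 9 genes Dnmt1, Dnmt3a, Dnmt3b, Dnmt3l, Uhrf1, Tet1, Tet2, Tet3 and Tdg were examined in a cell fraction labelled prospermatogonia. The genes were chosen by name, and every CpG cytosine measured from 2 kb upstream of the gene start to the gene end was taken (mm10 coordinates, GENCODE M21 models). These were 975 of the 1348062 CpG cytosines measured on chromosomes 1 to 19, X and Y. CpGs within 1 kb of a start of a basic protein-coding transcript were called promoter (293 CpGs), the other CpGs between gene start and gene end were called body (672 CpGs), and 10 CpGs lay in the remaining upstream flank. All 9 genes had CpGs in both the promoter and the body.

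The series compared 5 control samples with 5 arsenic samples. The study had excluded a further arsenic sample of these cells for its low read number. According to the methods of the study, pregnant C3H/HeN mice drank tap water, or tap water with sodium arsenite from mid-gestation on, and the F1 fetal testes were collected late in gestation. Each sample was a pool of testes from many embryos, sorted with magnetic beads for the surface antigen Thy1, and 1 dose of arsenite was used. DNA methylation was read by reduced representation bisulfite sequencing (RRBS), which cuts DNA at CCGG and therefore samples CpG-rich sequence. The level of a CpG is the percent of its reads that were methylated, and the level of a gene part is the unweighted mean over its CpGs in a sample.

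The sorted fraction was compared with its label at promoters with a known pattern. Maternally imprinted promoters are erased in fetal male germ cells and methylated on the maternal allele in somatic cells. Over the 10 of 11 listed promoters with CpGs, the control samples averaged 37.5% ± 2.40 and the arsenic samples 39.98% ± 9.34 (SD, n = 5), with a range of 27.1 to 53.2% over the 10 samples. Germline gene promoters, which germ cells keep unmethylated, were at 47.5 to 69.5% over the 10 samples (10 of 12 with CpGs). Neither list mean was near 0 in any sample, which goes against a fraction of germ cells alone. Single imprinted promoters ranged from 5.85% (Kcnq1ot1, control 4) to 76.9% (Plagl1, arsenic 5), and Kcnq1ot1 was at 36.3% in control 1. The highest germline promoter value was 84.6% (Hormad1, arsenic 5). From marker RNA and the clustering of methylation profiles, the study described the fraction as mainly enriched for prospermatogonia. The values below belong to the sorted fraction as it was. A change in the mix of cells and a change of methylation within cells cannot be told apart in such pools. Depth was 44207245 to 66570870 read calls per sample, with a median of 25 to 40 reads per CpG. Over the 975 CpGs the sample medians were 23 to 41 reads, and every CpG had at least 10 reads in every sample. The sample arsenic 1 stood apart, with a mean level over all CpGs of 42.1%, against 45.2 to 47.3% in the other samples.

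Methylation at CpGs is placed on new sites by DNMT3A and DNMT3B together with the catalytically inactive partner DNMT3L, and is copied after replication by DNMT1, which UHRF1 brings to hemimethylated DNA. The TET proteins oxidise the methyl group, and TDG excises the oxidised bases. In the male germ line methylation is erased early in the fetus and laid down anew in prospermatogonia, a stage in which DNMT3A and DNMT3L are needed. CpG-rich promoters of active genes are usually unmethylated, while the bodies of transcribed genes are usually methylated.

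Dnmt1 (ENSMUSG00000004099.16) lies on chromosome 9 from 20907209 to 20959888 on the minus strand. Dnmt3a (ENSMUSG00000020661.15) lies on chromosome 12 from 3806007 to 3914443 on the plus strand. Dnmt3b (ENSMUSG00000027478.15) lies on chromosome 2 from 153649450 to 153687730 on the plus strand. Dnmt3l (ENSMUSG00000000730.13) lies on chromosome 10 from 78041947 to 78063622 on the plus strand, and 13 of its 29 CpGs, 5 of them in the body, lie also inside Aire on the other strand. Uhrf1 (ENSMUSG00000001228.14) lies on chromosome 17 from 56303321 to 56323486 on the plus strand. Tet1 (ENSMUSG00000047146.17) lies on chromosome 10 from 62804570 to 62908996, Tet2 (ENSMUSG00000040943.12) on chromosome 3 from 133463679 to 133545139, and Tet3 (ENSMUSG00000034832.15) on chromosome 6 from 83362373 to 83459084, all on the minus strand. Tdg (ENSMUSG00000034674.18) lies on chromosome 10 from 82629828 to 82650799 on the plus strand.

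RRBS saw a small part of each gene. Of the CpG cytosines that the genome sequence holds in the bodies, the data covered between 2.10% (Tdg, 11 of 524) and 8.63% (Uhrf1, 44 of 510). The Tet1 body had 192 measured CpGs, Tet3 167, Dnmt3a 91, Dnmt1 88, Tet2 39, Dnmt3b 23 and Dnmt3l 17. A body value is the value of these CpGs and not of the whole gene. The 11 body CpGs of Tdg formed 1 stretch, from 82644338 to 82644462, and stand for that stretch alone.

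A few stretches with little methylation inside the genes are shown first, because the levels of the bodies and promoters turn on where they lie. They are given 5′ to 3′ on the strand of the gene, from the GRCm38 sequence, with the CpGs measured here in capitals. The Tet1 stretch is part of a CpG island in the interior of the annotated gene, and the Dnmt3a stretch lies upstream of the internal start. The Dnmt3l stretch lies in an intron behind the first start and spans the start of Aire on the other strand.
Tet1, chr10:62886861-62887110, minus strand: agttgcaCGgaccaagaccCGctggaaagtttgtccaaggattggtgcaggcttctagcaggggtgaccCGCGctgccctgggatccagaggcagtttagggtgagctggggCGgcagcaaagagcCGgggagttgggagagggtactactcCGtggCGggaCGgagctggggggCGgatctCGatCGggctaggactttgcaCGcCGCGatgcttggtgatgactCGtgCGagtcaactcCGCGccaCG
Dnmt3l, chr10:78043466-78043715, plus strand: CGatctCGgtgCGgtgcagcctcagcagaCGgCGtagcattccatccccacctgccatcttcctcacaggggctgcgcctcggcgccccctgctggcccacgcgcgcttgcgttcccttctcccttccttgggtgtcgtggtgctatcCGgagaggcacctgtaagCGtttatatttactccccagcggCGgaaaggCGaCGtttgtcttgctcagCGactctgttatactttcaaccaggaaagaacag
Dnmt3a, chr12:3891058-3891307, plus strand: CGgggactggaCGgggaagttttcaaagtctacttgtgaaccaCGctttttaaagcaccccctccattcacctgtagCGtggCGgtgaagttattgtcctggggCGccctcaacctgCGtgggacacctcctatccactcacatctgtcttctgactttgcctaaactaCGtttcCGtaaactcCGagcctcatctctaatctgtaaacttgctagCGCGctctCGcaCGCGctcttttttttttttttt
In the control group the measured CpGs of these windows had mean levels of 0.917% ± 0.479 (Tet1), 3.26% ± 2.24 (Dnmt3l) and 1.45% ± 0.866 (Dnmt3a). All 20 CpGs of the Tet1 window and all 15 of the Dnmt3a window were measured on at least 1 strand, and 11 of the 20 in the Dnmt3l window. The next windows hold CpGs with partial methylation. They are shown because more than 1 CpG of each was called by the rule of the study for differentially methylated cytosines (DMCs).
Tet2, chr3:133534151-133534282, minus strand, intron: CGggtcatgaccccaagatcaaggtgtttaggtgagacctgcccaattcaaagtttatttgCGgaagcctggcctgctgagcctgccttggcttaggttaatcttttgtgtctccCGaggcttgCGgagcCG
Dnmt3a, chr12:3871815-3871919, plus strand, intron: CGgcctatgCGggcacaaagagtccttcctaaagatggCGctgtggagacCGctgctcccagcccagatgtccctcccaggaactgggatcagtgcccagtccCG
Tet1, chr10:62812541-62812624, minus strand, coding exon: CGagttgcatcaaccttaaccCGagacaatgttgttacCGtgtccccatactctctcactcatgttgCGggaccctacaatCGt

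The bodies of Uhrf1, Tet2, Dnmt1 and Tdg were highly methylated, those of Tet3, Dnmt3b and Dnmt3a less so, and those of Tet1 and Dnmt3l were low. The control means were 86.7% ± 1.98 for Uhrf1, 85.8% ± 1.77 for Tet2, 85.4% ± 1.24 for Dnmt1, 81.2% ± 0.806 for Tdg, 75.3% ± 2.90 for Tet3, 72.4% ± 2.10 for Dnmt3b and 70.4% ± 1.30 for Dnmt3a (SD, n = 5). Uhrf1, Tet2 and Dnmt1 differed by less than the SD of Uhrf1, and Dnmt3b and Dnmt3a by less than the SD of Dnmt3b, whereas Tet1 (34.5% ± 1.26) and Dnmt3l (16.1% ± 1.88) were far from the others in every sample. Among the 14562 protein-coding genes with a body CpG, whose median control level was 71.8%, these values stood at percentiles from 47.0 (Dnmt3a) to 85.4 (Uhrf1) for the 7 higher genes, 11.9 for Tet1 and 6.46 for Dnmt3l.

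**Figure D1:**
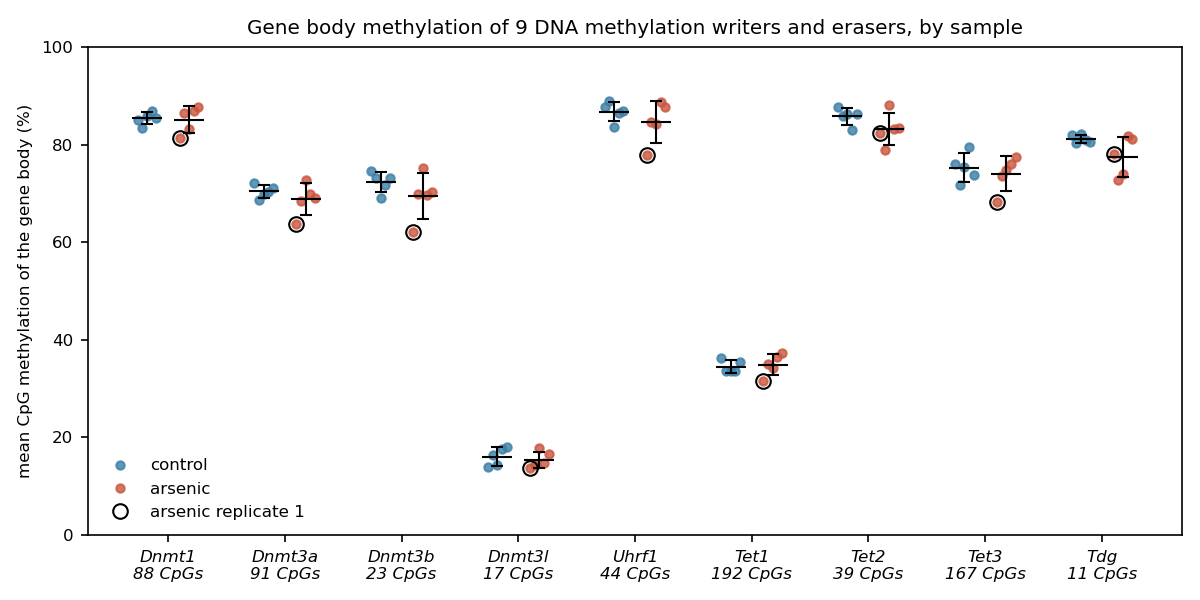
Mean CpG methylation in percent (vertical axis) of the gene body of each of the 9 genes, with 1 point per sample, control in blue and arsenic in red, the horizontal line at the group mean and bars of 1 SD (n = 5). Rings mark the sample arsenic 1, which was the lowest of the 10 samples in 7 genes, and the groups overlapped in every gene.

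Body methylation in the arsenic group was lower than in the control group in 8 of the 9 genes, by small amounts that none of the tests called. Of all gene bodies, 67.9% had a lower mean in the arsenic group, so a majority of lower values was also the pattern of the genome. The median difference was -1.65 points over the 9 bodies and -1.14 points over all bodies. No body among the 14562 passed an adjusted p of 0.05 by limma (0.00%), whose lowest adjusted p was 0.0734, while 10.4% had an unadjusted p under 0.05 and none of the 9 did. Levels of the groups did not overlap in 2.22% of all bodies and in 0 of the 9.

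Dnmt1, the maintenance methyltransferase gene, had the smallest body difference of the 9. Its body levels in the control samples were 85.1, 83.5, 86.0, 86.8 and 85.5%, and in the arsenic samples 81.3, 86.5, 83.2, 86.8 and 87.8%. The arsenic values lay on both sides of the controls. The difference was -0.26 points (95% interval -3.49 to 2.97, limma adjusted p = 0.965, exact permutation p = 0.865). Uhrf1, whose product recruits DNMT1, had 87.8, 88.9, 83.6, 86.4 and 86.9% in the control samples and 77.9, 84.7, 84.2, 88.8 and 87.8% in the arsenic samples. Only arsenic 1 lay below the range of the controls. The difference was -2.08 points (interval -6.62 to 2.46, limma adjusted p = 0.746, exact permutation p = 0.389).

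The de novo genes had lower means in the arsenic group, with overlapping samples. Dnmt3a had body levels of 72.2, 68.7, 69.9, 70.4 and 71.0% in the control samples and 63.7, 68.4, 72.8, 70 and 69.0% in the arsenic samples. The difference was -1.65 points (interval -5.28 to 1.97, limma adjusted p = 0.748, exact permutation p = 0.365). Arsenic 1 was the lowest sample and arsenic 3 the highest. Dnmt3b had 74.7, 73.2, 69.1, 71.8 and 73.1% in the control samples and 62.2, 70, 75.3, 69.6 and 70.3% in the arsenic samples. The difference was -2.91 points (interval -7.80 to 1.97, limma adjusted p = 0.658, exact permutation p = 0.262), and again arsenic 1 was the lowest and arsenic 3 the highest. Dnmt3l, the cofactor, had 13.9 to 18.1% in the control samples and 13.6 to 17.7% in the arsenic samples, a difference of -0.68 points (interval -3.57 to 2.21, limma adjusted p = 0.884, exact permutation p = 0.548).

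Among the erasers, Tet1 was the 1 gene of the 9 with a higher mean in the arsenic group. Its body levels were 36.3, 33.7, 33.6, 33.6 and 35.5% in the control samples and 31.6, 35.1, 34.1, 36.5 and 37.3% in the arsenic samples. The arsenic samples spread to both sides of the controls, and the difference was 0.41 points (interval -2.50 to 3.32, limma adjusted p = 0.932, exact permutation p = 0.722). Tet2 had 87.8, 85.8, 86.2, 82.9 and 86.2% in the control samples and 82.4, 78.9, 88.2, 83.3 and 83.4% in the arsenic samples, a difference of -2.54 points (interval -6.32 to 1.24, limma adjusted p = 0.620, exact permutation p = 0.151). In Tet2, 4 of the 5 arsenic samples were under the control mean, and arsenic 3 was the highest of all.

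Tet3 had 76.0, 71.7, 75.5, 79.5 and 73.8% in the control samples and 68.2, 73.7, 74.9, 76.1 and 77.5% in the arsenic samples. Apart from arsenic 1, the arsenic samples lay inside the control range. The difference was -1.23 points (interval -5.68 to 3.21, limma adjusted p = 0.856, exact permutation p = 0.571). Tdg, the glycosylase gene, had the largest difference of the 9, on the fewest CpGs. Its levels were 81.9, 80.4, 82.1, 80.9 and 80.5% in the control samples and 78.1, 72.7, 73.9, 81.8 and 81.1% in the arsenic samples. Arsenic 1, 2 and 3 were below all controls, and arsenic 4 and 5 were within their range. The difference was -3.65 points (interval -7.76 to 0.46, limma adjusted p = 0.512, exact permutation p = 0.119).

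The sample arsenic 1 stood out among the bodies. It was the lowest of all samples in 7 of the 9 bodies and arsenic 2 in the other 2 (Tet2 and Tdg). Without arsenic 1, 6 of the 9 bodies were lower in the arsenic group, with a median difference of -0.38 points, and over all gene bodies 56.5% were lower, with a median difference of -0.39 points. Without it the difference was -0.38 points for Uhrf1, -0.39 for Dnmt3a, -1.09 for Dnmt3b and -0.24 for Dnmt3l, all nearer to 0 by more than 1.5 times. Tet3 and Dnmt1 were then higher with arsenic, at 0.22 and 0.70 points, and Tet1 was at 1.25 points. Tet2 and Tdg moved little, to -2.33 and -3.79 points. The part of the low mean level of this sample in the body values was not tested.

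**Figure D2:**
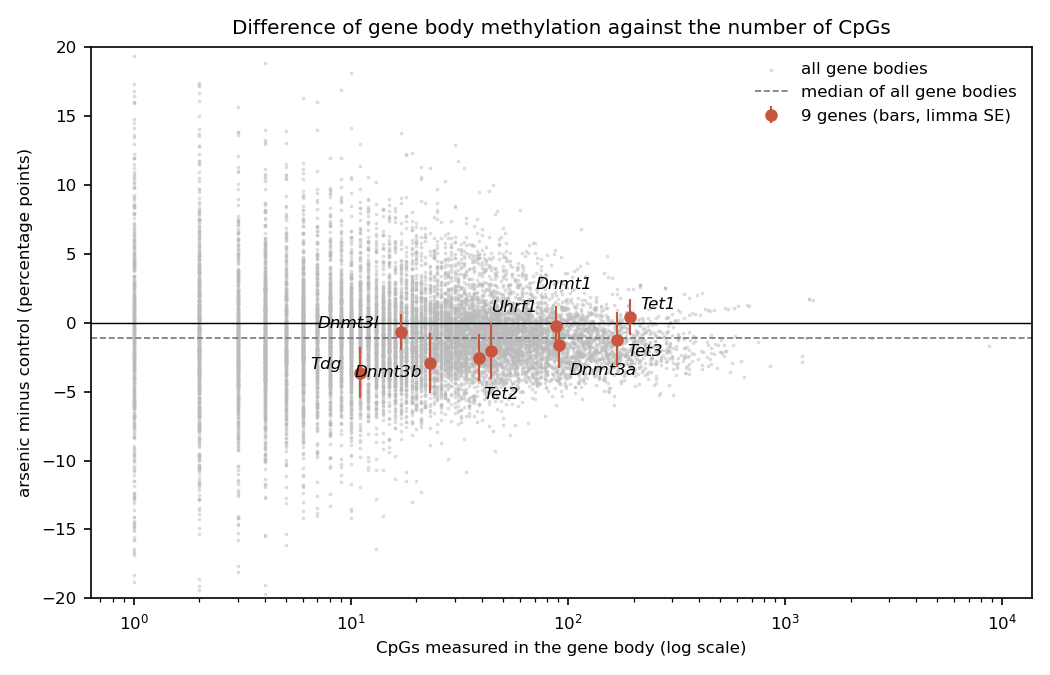
Difference of the mean gene body level (vertical axis, arsenic minus control, percentage points) against the number of CpGs measured in the body (horizontal axis, log scale), with a grey point for each of 14562 genes, the 9 genes in red with bars of 1 limma SE, and the median of all bodies dashed. The 9 genes lie inside the cloud of bodies with as many CpGs, and 15 bodies beyond 20 points are not drawn.

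Within the bodies, methylation differed by position and CpG density. CpGs at most 300 b apart were joined into 102 stretches, 81 of them in bodies. Of these 81, 68 had a control level of at least 60%, 7 lay from 20 to 60%, and 6 lay under 20%. Coding exons of the bodies were at 82.2% ± 1.33 in the control group (186 CpGs), untranslated regions at 67.1% ± 1.93 (58 CpGs) and introns at 55.9% ± 0.958 (428 CpGs). The intron CpGs include low stretches of Tet1 (60, 44 and 13 CpGs) and Dnmt3l (15 CpGs) at or near transcript starts, described below. These lower the intron mean, and exons and introns were not compared without them. Body CpGs with fewer than 10 genomic CpGs within 250 b either side were at 75.02% and those with 10 to 19 at 72.5%, while the 40 CpGs with 30 or more neighbours, which belonged to Tet1 and Dnmt3l, were at 1.04%. CpGs of all gene bodies with 30 or more neighbours had a mean of 11.2%.

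**Figure D3:**
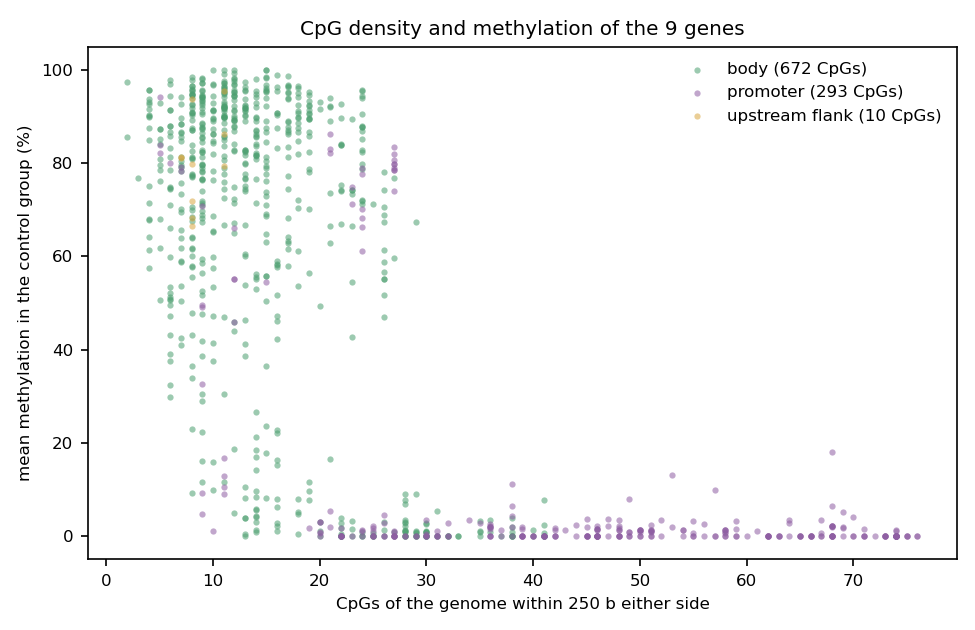
Mean methylation in the control group (vertical axis, percent) against the number of genomic CpGs within 250 b either side (horizontal axis), with 1 point for each of the 975 CpGs, body in green, promoter in purple and upstream flank in orange. Methylated and unmethylated CpGs occur together up to about 30 neighbours, and beyond that the CpGs lie under 20%.

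The low body level of Tet1 came from 3 of its stretches. In the interior of the annotated gene, 60 CpGs at 62884972 to 62886465 were at 11.6% ± 1.48 and 44 CpGs at 62886862 to 62887498 were at 1.01% ± 0.421 in the control group. The arsenic group had 11.9% ± 2.77 and 0.748% ± 0.302. The stretch of 60 CpGs was not uniform. As percent of summed reads in controls, its 44 CpGs at 62885774 to 62886465, nearest the other stretch, were at 2.13%. Farther away, 6 CpGs at 62885331 to 62885453 were at 34.0% and 4 at 62884972 to 62885069 at 48.3%. Another stretch, of 13 CpGs at 62865798 to 62866262, next to the start of a noncoding Tet1 transcript, was at 5.77% ± 1.12 and 6.65% ± 0.982. The other Tet1 body stretches had control levels from 50.4 to 91.1%.

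The island stretch lies at a transcript start that the rule for promoters did not use. GENCODE places starts of coding Tet1 transcripts at 62887324 and 62887512, outside the basic set, and the RefSeq start of Tet1 is at 62887324. Within 1 kb of these starts 59 CpGs were at 1.06% ± 0.180 in controls and 0.951% ± 0.389 with arsenic. The starts of the basic set, at 62899118 and 62880014, were at 83.6% ± 4.64 (5 CpGs) and 77.0% ± 5.68 (21 CpGs) instead. With 1 kb around every annotated start left out, an alternative chosen after the data were seen, the Tet1 body had 120 CpGs at 54.1% ± 2.03 in controls and 54.7% ± 3.52 with arsenic, a difference of 0.61 points. Whether a body CpG of Tet1 is a promoter CpG thus depends on the annotation, while the difference between the groups stayed within the spread of the samples.

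Dnmt3l was low in 1 stretch as well. Of its 17 body CpGs, 15 lay at 78043467 to 78043858, downstream of the first starts, with 6.09% ± 2.25 in controls and 4.82% ± 1.57 with arsenic. The 5 of these at 78043467 to 78043499 lie also inside Aire on the other strand, so the stretch spans the start of Aire. The low Dnmt3l body value is thus mostly that of CpGs around the start of another gene. The remaining 2 body CpGs, in a coding exon near 78057307, were at 90.98% ± 4.58 and 94.7% ± 5.03. Dnmt3a showed 1 low body stretch, of 8 intronic CpGs at 3871815 to 3871919, with 13.8% ± 7.66 and 17.9% ± 6.70. In Tet3, 6 CpGs of a 5′ untranslated exon at 83455235 to 83455367 were at 16.9% ± 7.35 and 13.0% ± 5.92.

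**Figure D4:**
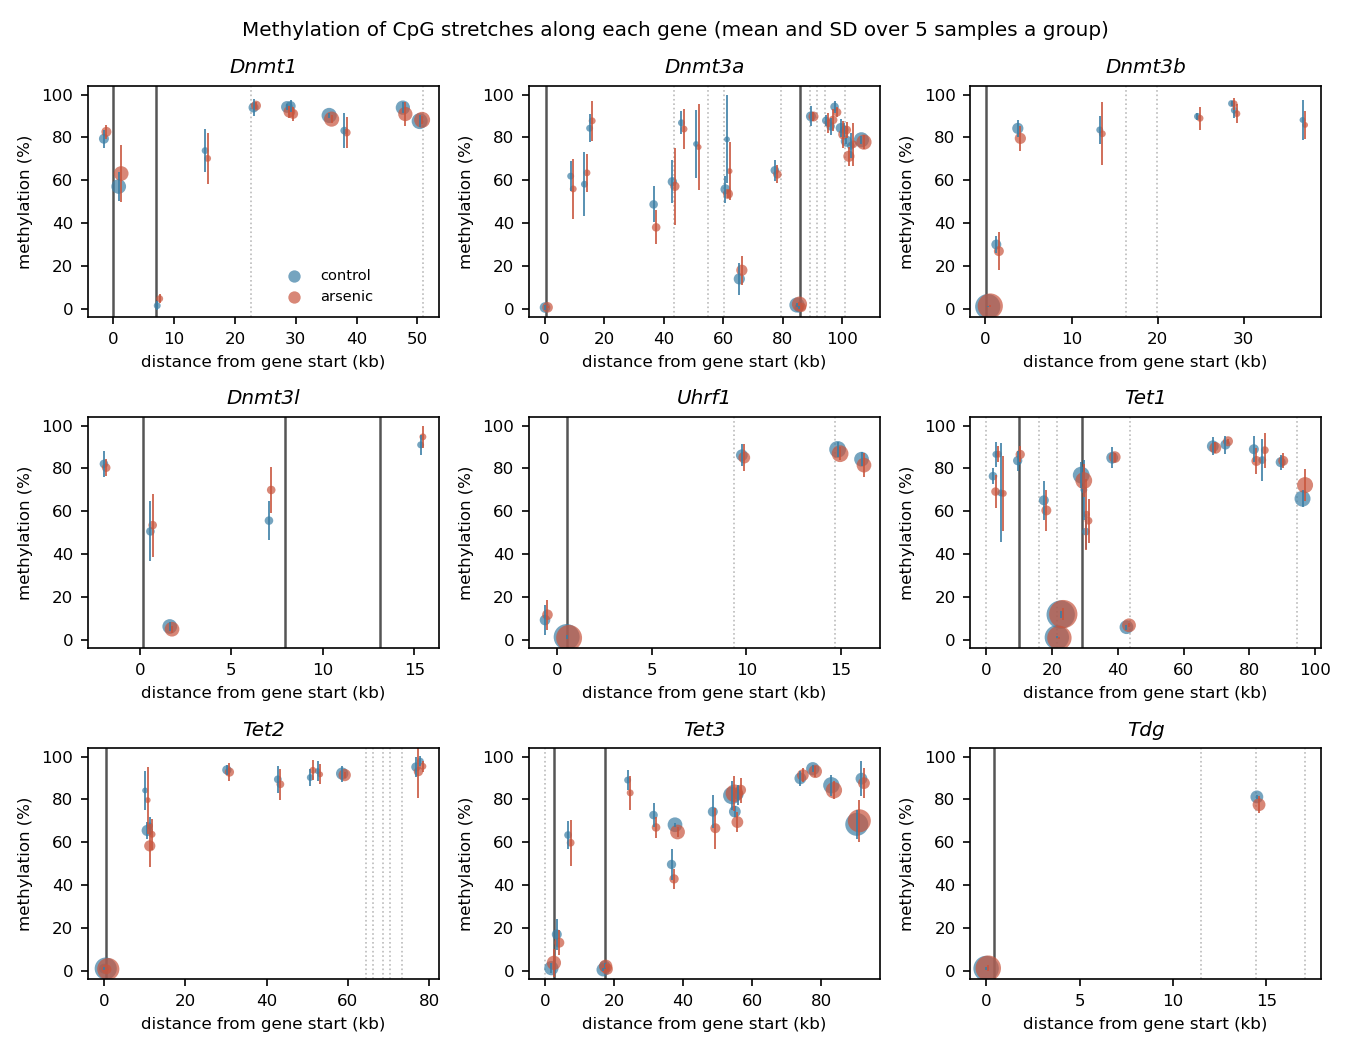
Methylation in percent (vertical axes) of the CpG stretches of each gene against the distance from the gene start in kb (horizontal axes), control in blue and arsenic in red, slightly offset, as mean and SD over 5 samples, with the point area growing with the number of CpGs. Solid vertical lines mark starts of basic protein-coding transcripts and dotted lines other annotated starts. The low Tet1 stretches lie at or near dotted lines. The lower of the pair of large ones is at such a line and is as low as the promoters of Dnmt3b, Tet2 and Tdg.

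The promoters of 6 genes were nearly unmethylated in both groups. The control means were 0.905% (Dnmt3b, 47 CpGs), 0.912% (Tet2, 42), 0.936% (Tdg, 48), 1.06% (Tet3, 34), 1.12% (Dnmt3a, 28) and 2.15% (Uhrf1, 57), and the arsenic means were 0.665 to 2.33%. Both starts of Dnmt3a were in this state. The internal start at 3891728 to 3891744, from which a shorter protein is made, was at 1.33% ± 0.598 (21 CpGs), and the outer starts at 3806007 to 3807160 were at 0.476% ± 1.06 (7 CpGs).

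Dnmt1, Dnmt3l and Tet1 had methylated CpGs in the promoter. Dnmt1 had 3 promoter CpGs. Of these, 2 at the downstream starts (20952605 to 20952979) were at 1.35% ± 2.23 in the control group, and the other, at the upstream start (20959888), was at 54.4% ± 30.5. The 15 CpGs downstream of that start, 20958580 to 20958896, with that promoter CpG among them, had intermediate levels, with 56.5, 56.3, 59.7, 66.0 and 46.7% in the control samples and 49.7, 67.1, 48.0, 74.2 and 76.5% in the arsenic samples. Arsenic 2, 4 and 5 were above all controls, and arsenic 1 and 3 were within their range. The Dnmt3l promoter (8 CpGs) had 52.7, 61.5, 42.6, 49.1 and 59.4% in the control samples and 61.2, 56.8, 57.9, 57.7 and 74.7% in the arsenic samples. All 5 arsenic samples were above the control mean, yet 4 of them lay within the control range.

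No promoter difference was called. Of the 13948 gene promoters, 0.00% passed an adjusted p of 0.05, 5.08% had an unadjusted p under 0.05, 1.02% had groups without overlap and 45.5% were lower in the arsenic group. Of the 9, 3 were lower, none had groups without overlap and none had an unadjusted limma p under 0.05. Dnmt3l had the largest difference, of 8.63 points (95% interval -1.56 to 18.8, limma adjusted p = 0.894, exact permutation p = 0.119). Tet2 had the smallest exact permutation p (0.0238), on levels of 0.912% ± 0.0835 in controls and 0.665% ± 0.194 with arsenic. Each of the 5 arsenic samples lay under the control mean, limma gave an adjusted p of 0.894, and every sample of both groups was under 1.1%.

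At single CpGs the rule of the study counts reads, and asks for a q up to 0.01 in logistic regression together with 10 points or more between the pooled reads. By this rule the 9 genes held 12 hypoDMCs and 7 hyperDMCs. That was 1.23% and 0.718% of the 975 CpGs, beside 1.48% and 0.784% of all CpGs, so the genes were near the background in both directions. Among partly methylated CpGs (10 to 90% on average), 4.08% were DMCs here and 3.73% in all. None of the 975 CpGs had levels without overlap between the groups, against 0.693% of all CpGs, so none met the rule for naming single CpGs. With the sample as the replicate, limma called no CpG. Its unadjusted p was under 0.05 at 36 of the 975 CpGs (3.69%) and at 6.00% of all CpGs. The lowest adjusted p over the 975 was 0.830.

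The 19 DMCs lay in 7 genes, and Dnmt3b and Tdg had none. Tet3 had 4 hypoDMCs and 1 hyperDMC, Tet1 had 2 and 3, Dnmt3a had 2 of each, Tet2 had 2 hypoDMCs, Dnmt1 and Uhrf1 had 1 hypoDMC each, and Dnmt3l had 1 hyperDMC. The CpGs described next were chosen after their values were seen, and their group differences are given as a description.

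The Tet2 window shown above holds both hypoDMCs of that gene. At 133534166 the control samples were at 43.3, 37.3, 63.6, 45.0 and 46.7% and the arsenic samples at 16.3, 43.5, 66.0, 8.82 and 22.6%, at 40 to 92 reads. At 133534282 the control samples were at 60, 60, 38.2, 56.2 and 33.3% and the arsenic samples at 22.2, 40.5, 40.9, 19.2 and 31.2%. Arsenic 1, 4 and 5 were below all controls at both CpGs, and arsenic 3 was above all controls at the first. Over the 8 CpGs of the window the level was 65.5% ± 4.12 in controls and 58.3% ± 10.01 with arsenic.

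The 3 hyperDMCs in a coding exon of Tet1 are neighbours, from 62812542 to 62812623. At 62812623 the control samples were at 58.1, 39.2, 50.8, 51.5 and 47.3% and the arsenic samples at 40, 70, 63.5, 74.7 and 75.9%. Arsenic 2 to 5 were above all controls and arsenic 1 was near their lower end. The 18 CpGs of the stretch around them were at 65.8% ± 4.00 in controls and 72.2% ± 7.66 with arsenic, with 62.3% in arsenic 1 and 68.6 to 83.1% in the other arsenic samples. Another Tet1 CpG, at 62879050 in a coding exon inside the promoter window, had the largest lower value of the 19, a difference in pooled reads of -25.3 points. Its control samples were at 87.0, 70, 92.3, 63.6 and 87.5% and its arsenic samples at 26.7, 56.2, 56.5, 66.7 and 60%, at only 10 to 24 reads.

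Dnmt3l had the largest higher value, 25.4 points in pooled reads, at 78049060 in an intron before its second group of starts. The control samples were at 48.1, 69.2, 23.8, 41.2 and 47.4% and the arsenic samples at 64.6, 43.3, 77.8, 87.9 and 61.1%. The 4 CpGs there were at 55.6% ± 9.08 in controls and 69.9% ± 10.9 with arsenic. In the Dnmt3a window shown above, the hyperDMC at 3871824 was at 0.00% in 4 control samples and 14.3% in control 5, and at 27.3, 0.00, 36.4, 40 and 0.00% in the arsenic samples. Here 3 arsenic samples were high and the other 2 were at 0.

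Regions were tested with the sample as the replicate, using log2 of methylated over unmethylated reads, summed over runs of at least 3 CpGs at most 100 b apart. Of 139746 regions, 0.00% passed an adjusted p of 0.05 with a difference of 10 points, none of the 92 regions of the 9 genes among them. The unadjusted p was under 0.05 in 8 of the 92 (8.70%) and in 7.09% of all regions. The lowest adjusted p over all regions was 0.686.

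The 3 regions with the smallest p were 2 near the downstream start of Tet3 and 1 before Dnmt1. The first had 12 CpGs at 83441816 to 83441930, upstream of that Tet3 start and in an intron of the longer transcript. It is shown for its place beside an unmethylated start, with the measured CpGs in capitals.
Tet3, chr6:83441816-83441930, minus strand: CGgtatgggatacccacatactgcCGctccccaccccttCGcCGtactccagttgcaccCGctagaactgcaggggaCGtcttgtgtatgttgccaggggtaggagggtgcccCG
Its level was 0.528, 1.30, 0.00, 0.00 and 0.00% in the control samples and 2.01, 2.06, 2.82, 0.583 and 2.67% in the arsenic samples. The log2 ratio was 1.88 ± 0.54 (limma SE) higher in the arsenic group (adjusted p = 0.686), although both groups were under 3%. The second, 8 CpGs at 83441371 to 83441476 downstream of the start, had the opposite sign, with a log2 ratio of -1.66 ± 0.64 and levels of 1.93% and 0.582% (adjusted p = 0.688). The third, 3 CpGs at 20961087 to 20961108 upstream of Dnmt1, was at 86.5% ± 4.32 in controls and 92.2% ± 2.30 with arsenic (log2 ratio 0.79 ± 0.31, adjusted p = 0.688).

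The body levels were compared with the imprinted promoter level of the same sample, which is known to differ between germ and somatic cells. Pearson's r over the 10 samples was positive for all 9 bodies, from 0.0504 (Tet2) to 0.649 (Dnmt1). The permutation p for Dnmt1 was 0.0440, or 0.186 adjusted over the 9 bodies, and Spearman's rho was 0.503 (p = 0.144, adjusted 0.830). For Tet1 and Tet3 r was 0.611 and 0.618, with an adjusted permutation p of 0.186 for each, and rho was 0.321 and 0.418 (adjusted 0.830 for each). Within groups, from deviations from the group means, r was 0.676, 0.603 and 0.686 for Dnmt1, Tet1 and Tet3. Without the 2 samples farthest from the median imprinted level, arsenic 1 and arsenic 5, r was -0.211, -0.553 and -0.00178, so the relation rested on those samples. Over the 9 bodies r without them ranged from -0.661 (Uhrf1) to 0.189 (Dnmt3l). The part of other cell types in the body levels was not tested.

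**Figure D5:**
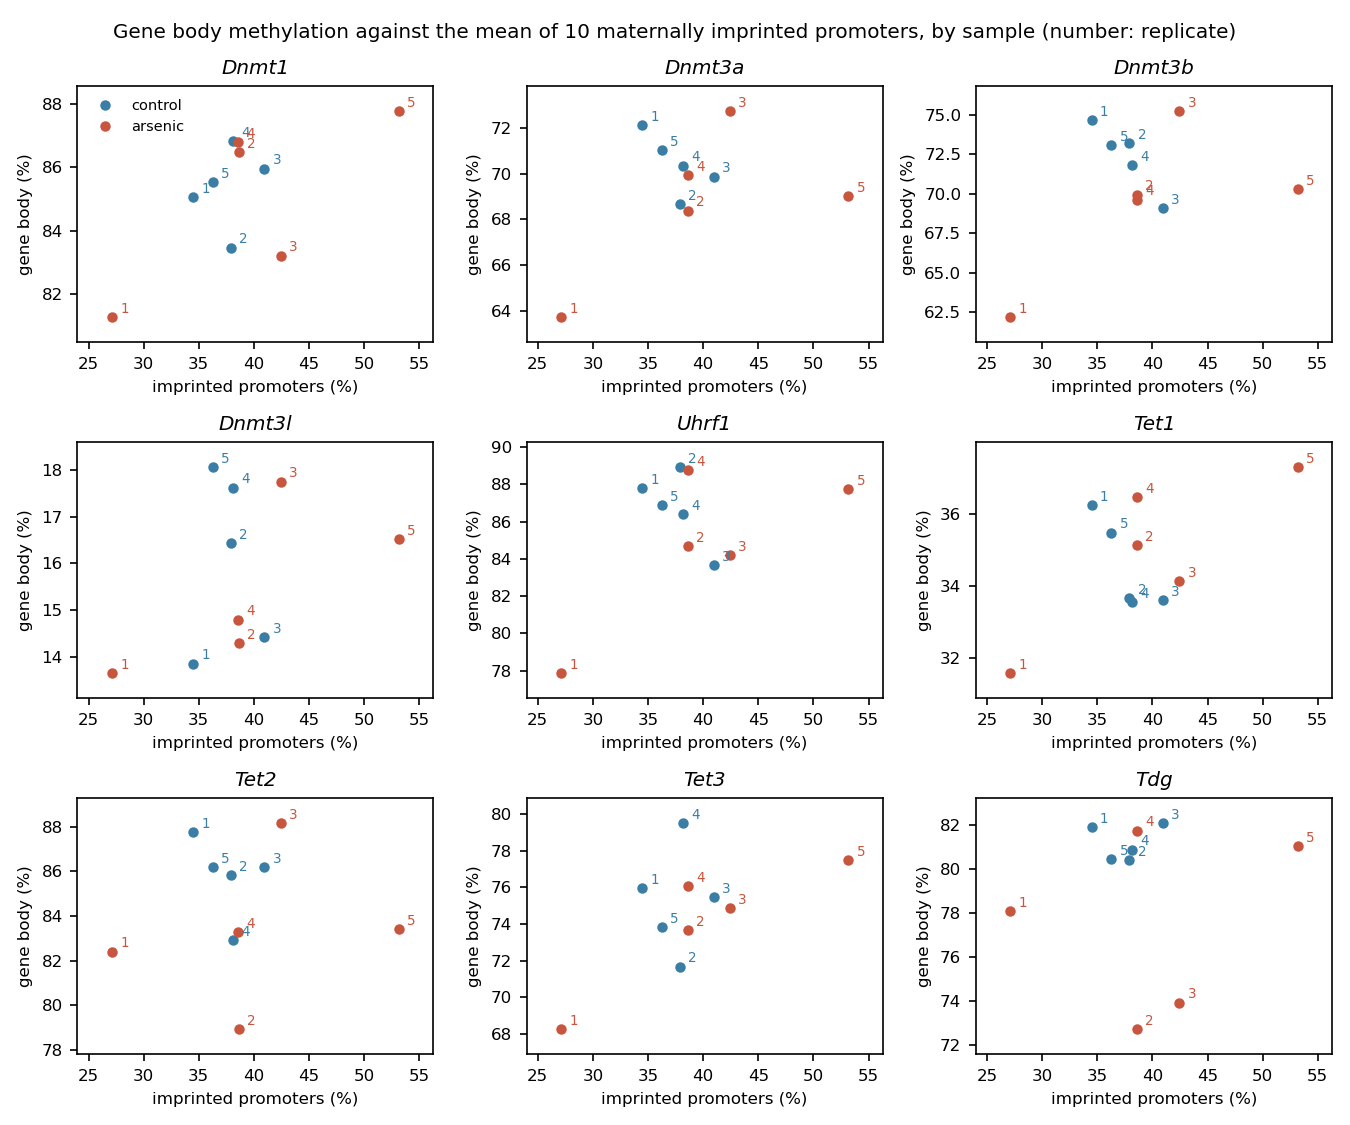
Gene body methylation in percent (vertical axes) against the mean of 10 maternally imprinted promoters in percent (horizontal axes), with 1 point per sample labelled by its replicate number, control in blue and arsenic in red. Arsenic 1, at 27.1% on the horizontal axis, and arsenic 5, at 53.2%, lie apart from the other 8 samples, which span 34.5 to 42.4%.

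Over the 36 pairs of the 9 bodies the median Pearson's r across the 10 samples was 0.396, and 34 pairs had a positive r. The share of positive pairs among all bodies was not counted. For 6 bodies with at least 20 CpGs, the most similar of 7008 other such bodies was Drg1 for Dnmt1 (r = 0.954), Itpr3 for Dnmt3a (0.964), Btbd16 for Dnmt3b (0.983), Atp1a4 for Tet1 (0.971), Tnn for Tet2 (0.910) and Orai1 for Tet3 (0.963). These are the highest of many correlations over samples that share the same libraries. The median r with all such bodies was 0.301 (Tet2) to 0.517 (Dnmt3a). The 0.396 of the pairs lies in that range, though the pairs also include Dnmt3l and Tdg, whose bodies have fewer than 20 CpGs. Whether the 9 bodies varied together more than other bodies was not tested.

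No other gene of the pathway lists was called. Of 17 genes listed under binding and recruitment, 14 had body CpGs, and Dnmt3c, Mbd3 and Zbtb33 had none. Of the 14, 10 were lower and 4 higher in the arsenic group, with a median difference of -1.65 points and none called. In this list 3 of the 14 had an unadjusted limma p under 0.05, where all bodies gave 10.4%, and 67.9% of all bodies were lower. The smallest exact permutation p in this list was 0.0238, for 2 genes. Cxxc4, a CXXC-domain gene, was at 11.8% ± 2.06 in controls and 6.996% ± 2.39 with arsenic (limma adjusted p = 0.445), and Nsd1, a histone H3K36 methyltransferase gene, was at 74.8% ± 1.42 and 77.5% ± 1.12 (limma adjusted p = 0.463). Of 16 genes of demethylation and base excision repair, 14 had body CpGs, 9 lower and 5 higher, with a median of -1.01 points and none called, and 2 of the 14 had an unadjusted limma p under 0.05. No test compared either list with the other genes. Neil2, a DNA glycosylase gene, had the smallest exact permutation p, 0.00794, which is the smallest that 5 against 5 samples can give. Its 12 body CpGs were at 84.6, 83.7, 86.4, 86.0 and 89.2% in the control samples and 81.2, 79.3, 81.7, 78.8 and 81.9% in the arsenic samples. The groups did not overlap, as in 2.22% of all bodies, and limma gave an adjusted p of 0.408.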

How the data were processed

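RRBS libraries of 10 pooled samples were used. According to the submitters' processing notes the authors used Trim Galore 0.6.5, Bismark 0.22.3 and methylKit 1.22.0 on mm10, with the strands of a CpG kept apart. The treatment of duplicate reads and overlapping mates was not given in the sources used here. The deposited table holds raw counts of reads, methylated reads and unmethylated reads for 1349101 cytosines, each with at least 10 reads in every sample. Of these, 158 mitochondrial and 881 scaffold CpGs were left out, and 99.99% of the others lay at a CpG of GRCm38 on the stated strand. Even read numbers were found at 54.1 to 58.3% of the CpGs of a sample, 76.0 to 80.5% of them with an even methylated count, and reads were therefore not treated as independent outside the rule of the study. Counting intervals are not given, and the spread between samples is the error used.

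Samples were grouped by their titles. The labels do not say that a replicate number marks a shared litter or day, and pools are taken as replicates. The 9 genes, the gene lists and the tests were chosen with earlier results of these data known. Levels of gene parts in percent were tested with limma 3.58.1 (R 4.3.3) over all protein-coding genes with Benjamini-Hochberg adjustment, and beside it with the exact two-sided permutation test over 252 assignments. Regions used log2 ratios with 1 read added to each count. All 9 genes were to be named, single CpGs only if DMCs without overlap, the 3 regions of smallest p, the most similar gene body for each gene (that of Uhrf1 is not reported here), and list genes that were called or had the smallest exact p. Permutation p of correlations used 100000 resamples and are two-sided. Alternatives were other weightings, coverage minimums, gene part definitions, CpG tests, region settings, a replicate block, and leaving out each sample. CpG positions are 1-based. Python 3.11.15, numpy 2.4.6 and scipy 1.17.1 were used.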

Additional observations from a re-analysis of the deposited data

Results flagged for a closer look

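In groups of 5 samples, a sample was marked when its gap to the nearest other sample was more than 0.71 of the range of the group. Of 100 groups tested (gene parts, stretches of at least 10 CpGs and the named regions, in each treatment group), 9 were marked, where chance marks about 1 in 20. Some of these overlap, since a stretch can be the same CpGs as a promoter.

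Arsenic 5 was high at Tet3. Its Tet3 promoter was at 7.51% and the other arsenic samples at 0.905 to 1.28% (gap 0.944 of the range). The 14 CpGs at 83456810 to 83456954, beside an upstream Tet3 start, were at 15.2% in arsenic 5 and at most 1.90% in the other arsenic samples (gap 0.875). In the same stretch control 5 was at 5.06% and the other controls at 0 to 0.461% (gap 0.909). Arsenic 5 was also high at the Dnmt3l promoter, at 74.7% against 56.8 to 61.2% in the others (gap 0.751).

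Arsenic 1 was high at the 48 promoter CpGs of Tdg, with 3.38% against 0.219 to 0.694% (gap 0.850, for the promoter and for the stretch 82629717 to 82630065, which are the same CpGs). It was low at the Uhrf1 stretch 56319095 to 56319839, with 71.6% against 82.8 to 85.8% (gap 0.785). The Dnmt3a promoter was low in arsenic 2, at 0.547% against 1.52 to 1.75% (gap 0.805). The Tet1 stretch 62886862 to 62887498 was high in arsenic 3, at 1.27% against 0.536 to 0.743% (gap 0.719).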

How the results depend on the processing

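No alternative called a body, promoter or region of the 9 genes. Over all genes, 1 body was called with the outermost start only, 1 with at least 10 CpGs and 1 with the replicate block, and 1 promoter with the replicate block, none of them in the 9 genes. Leaving out 1 sample gave 0 to 1 bodies (1 without arsenic 5) and 0 to 1 promoters (1 without arsenic 1 or 3). Replicate numbers did not pair the samples, since correlations of deviations of same-numbered samples were -0.0149 to 0.0367 and 1 of 5 arsenic samples was closest to its own number. The replicate block left 0 hypoDMCs and 0 hyperDMCs in the limma test per CpG, as did limma without it.

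Directions of small differences depended on weighting. With coverage-weighted levels, Dnmt1 was at 0.086, Dnmt3l at 6.22 and Tet1 at -2.85 points in the body and Tdg at -0.021 in the promoter. As log2 ratios of summed reads, they were at 0.027 (Dnmt1), 0.55 (Dnmt3l) and -0.20 (Tet1). The Dnmt3l body was at 2.18 points with the outermost start only and 6.64 with 2 kb around starts. Merged strands put the promoters of Uhrf1 at 0.13 and Tet2 at 0.022, so that 1 promoter was lower, and coverage of at least 20 put that of Tet3 at -2.48. Leaving out 1 sample, body differences ranged from -0.92 to 0.70 for Dnmt1, -2.14 to 0.22 for Tet3 and -0.19 to 1.25 for Tet1, with 6 to 9 bodies lower. Promoter differences ranged from -0.37 to 0.20 for Uhrf1, -0.42 to 0.37 for Tdg and -0.027 to 1.62 for Tet3, with 2 to 4 promoters lower. In the body the sign turned for Dnmt1 without control 4, arsenic 1 or arsenic 3, for Tet3 without arsenic 1, and for Tet1 without arsenic 5. In the promoter it turned for Tet3 without arsenic 5, for Tdg without control 4 or arsenic 1, and for Uhrf1 without control 2 or 5 or arsenic 1 or 2. The cause was not tested.

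The DMC counts changed with the test and with single samples. An overdispersion F test, limma per CpG and reads thinned to 10 per CpG left 0 hypoDMCs and 0 hyperDMCs each. Over all CpGs the lowest limma adjusted p was 0.807, so limma called none anywhere. Thinning takes away reads and with them the power to call a difference. A difference of at least 20 points left 3 and 1, and coverage of at least 20 left 9 and 4. Leaving out 1 sample gave 5 to 16 hypoDMCs (5 without control 1) and 1 to 7 hyperDMCs (1 without arsenic 4, 3 without control 2 or arsenic 5, 4 without control 3). The shares of all CpGs called under these settings are not given here. These counts are therefore not read as a result about the 9 genes. No relation to the imprinted promoters passed 0.05 without any 1 sample, an alternative added after the data were seen, and 4 to 9 of the bodies had a positive r (4 without arsenic 1). The other single-gene values kept their direction. With every annotated start left out, the Tdg body had no CpG left.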
